A study of Mus musculus with 8 samples.

Results

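The cytosolic heat shock chaperones described here are 10 genes, taken by name from the 20894 genes of a liver RNA-seq table: Hspa1a, Hspa1b, Hspa8, Hsph1, Hsp90aa1, Dnajb1, Dnaja1, Chordc1, Bag3 and Hspb1. All 10 have a row in the table, and 9 passed the filter on low counts. The libraries come from wild-type mice injected with an adeno-associated virus of serotype AAV8 that carried POLR2G (4 libraries) or green fluorescent protein, GFP (4 libraries), in both groups behind the TBG promoter. All animals were killed after fasting during the day, so the vector, its promoter and the fast are shared by both groups. The sources used here give no strain, sex or age. POLR2G is a subunit of RNA polymerase II, and the TBG promoter is active mainly in hepatocytes. RNA was taken from whole liver, so the other cell types of the tissue contribute to every value. Which animal each library came from is not labelled, and the p-values rest on the variation from library to library, which may be technical.

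Heat shock chaperones keep proteins folded. The transcription factor HSF1 is held inactive by chaperones and, when misfolded proteins draw these away, binds promoters at repeated short elements and switches on genes of this group. HSP70 proteins (Hspa1a and Hspa1b, strongly inducible, and Hspa8, the constitutive form) bind exposed stretches of client proteins, J-domain proteins (Dnajb1, Dnaja1) deliver the clients and drive the ATPase cycle, and exchange factors (Hsph1, Bag3) release ADP. HSP90 (Hsp90aa1 encodes its inducible form) matures kinases and receptors with cochaperones such as the product of Chordc1, and Hspb1 encodes a small heat shock protein that holds unfolded proteins.

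HSF1 binding is usually described by the letters of the heat shock element, so the promoter windows of 4 members that the values below turn on are shown here with the matches they hold. The windows are from RefSeq on GRCm38.p6 and run from 250 bases before to 50 bases after an annotated transcript start. A heat shock element was searched as 3 alternating cores (GAA, TTC, GAA, or TTC, GAA, TTC, each 2 bases from the next), which covers both strands, and as 2 such cores, of which every 3-core match holds 2. The 3-core form was found in windows of 2 of the 8 members with a window, Chordc1 and Hsph1. By window this was 3 of the 12 member windows, against 0.603% of the 32851 windows of the whole table. The 2-core form was found in 7 of the 8 members, all but Dnajb1, and in 8 of the 12 member windows, against 15.1% of all windows. The members were listed as genes linked to HSF1, so no excess of heat shock elements is read from these shares. The TATA box letters TATAAA were in no member window and in 13.6% of all windows (both strands). The CCAAT box (CCAAT or ATTGG) was in 5 of the 8 members and in 7 of the 12 member windows, against 37.4% of all windows. Chordc1 held 3 overlapping 3-core matches from base -4 to base 19 around its RefSeq start (chr9:18292017-18292316, plus strand). Hsph1 held 1, from base 37 to base 49 after the RefSeq start (chr5:149636287-149636586, minus strand). In GENCODE M21, used for the gene coordinates below, Chordc1 begins upstream of its RefSeq start, at base 18292125. The windows of Hspa1a (chr17:34972107-34972406, minus strand) and Hspa1b (chr17:34959189-34959488, minus strand) differ at 4 of 300 bases and each hold a 2-core match from base -104 to base -97. In the lines below the capitals mark the 3-core matches of Chordc1 and Hsph1 and the 2-core matches of Hspa1a and Hspa1b. A match is a description of letters and not a binding site.
Chordc1: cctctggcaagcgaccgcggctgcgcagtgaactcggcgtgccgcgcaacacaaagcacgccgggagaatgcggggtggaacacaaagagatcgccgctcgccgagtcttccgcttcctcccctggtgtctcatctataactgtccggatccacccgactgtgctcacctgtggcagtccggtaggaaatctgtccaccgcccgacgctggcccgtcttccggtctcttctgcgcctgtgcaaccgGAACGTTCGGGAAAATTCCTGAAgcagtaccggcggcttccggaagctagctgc
Hsph1: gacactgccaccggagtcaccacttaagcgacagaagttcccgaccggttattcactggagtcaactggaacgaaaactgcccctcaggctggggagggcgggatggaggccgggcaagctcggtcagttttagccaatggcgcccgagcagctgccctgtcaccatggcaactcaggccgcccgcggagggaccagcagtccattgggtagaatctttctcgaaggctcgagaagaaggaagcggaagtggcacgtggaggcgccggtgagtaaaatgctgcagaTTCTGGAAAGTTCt
Hspa1a: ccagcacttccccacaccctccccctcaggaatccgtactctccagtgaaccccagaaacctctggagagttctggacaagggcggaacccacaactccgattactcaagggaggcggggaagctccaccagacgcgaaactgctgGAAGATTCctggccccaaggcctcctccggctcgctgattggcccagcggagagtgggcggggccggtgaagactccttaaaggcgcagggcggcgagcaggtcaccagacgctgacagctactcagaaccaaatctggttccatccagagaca
Hspa1b: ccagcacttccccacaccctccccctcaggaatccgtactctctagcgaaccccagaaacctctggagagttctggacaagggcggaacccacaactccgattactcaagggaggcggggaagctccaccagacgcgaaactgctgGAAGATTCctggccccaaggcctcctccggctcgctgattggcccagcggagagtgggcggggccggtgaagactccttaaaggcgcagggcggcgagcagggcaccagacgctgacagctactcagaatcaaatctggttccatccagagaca

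**Figure D1:**
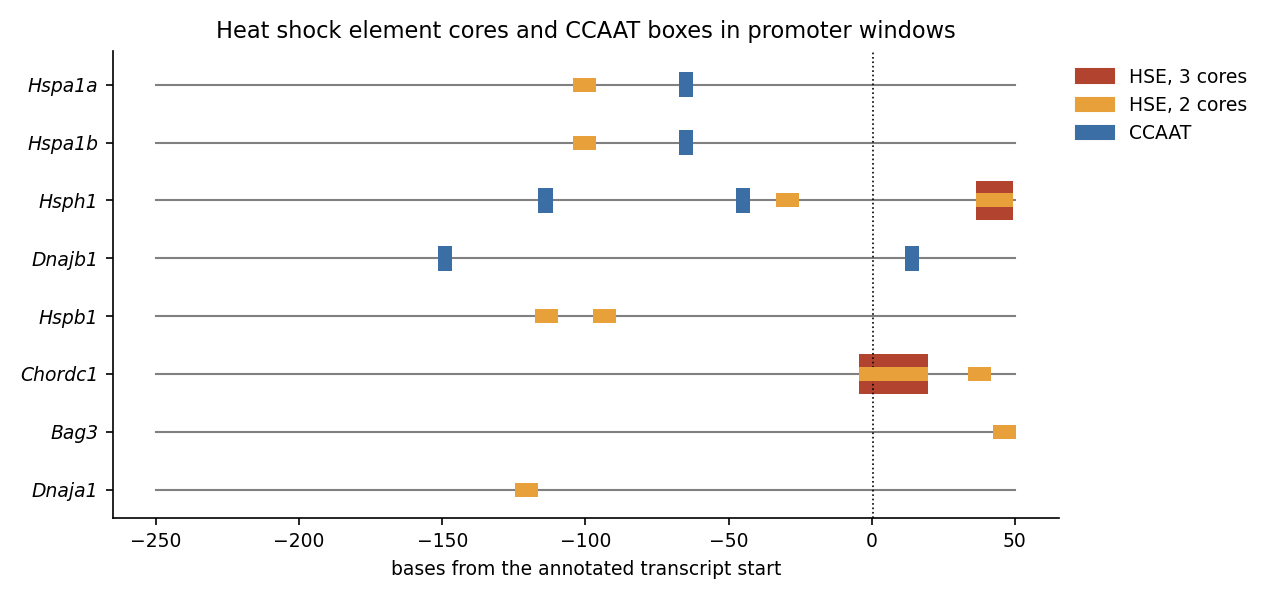
The first promoter window of each of the 8 members with a RefSeq window (the CCAAT boxes of Dnaja1 lie in its other windows); the x axis gives the distance in bases from the annotated transcript start, red marks heat shock elements with 3 cores, orange those with 2 cores and blue CCAAT boxes. The 3-core matches of Chordc1 span its RefSeq start (base -4 to 19), that of Hsph1 lies after its own, and the Dnajb1 window holds no core pair.

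No chaperone gene passed the test between the groups. Of the 9 members tested, 0 passed edgeR's quasi-likelihood test at an adjusted p under 0.05 over all 10390 genes, where 4 genes passed, 0.0385% of those tested (0.0192% higher and 0.0192% lower). Polr2g itself, which the vector carries, was 1 of those 4. DESeq2 and limma-voom also called 0 of the 9, and called 1.3% and 0.0289% of all genes. Unadjusted, 2 members had an edgeR p under 0.05, Chordc1 and Hspa1a, both lower in the POLR2G libraries, where 4.1% of all genes were lower and 8.3% differed in either direction at that level. A lower mean in the POLR2G libraries was found for 8 of the 9, against 50.7% of all genes, and the median log2 fold change (POLR2G over GFP control) of the 9 was −0.23, against −0.0031 over all genes tested. With 1 library left out the unadjusted edgeR p of Chordc1 stayed under 0.05 (0.0045 to 0.0185), and calls of other members moved both ways. The p of Hspa1a was over 0.05 (0.0536 to 0.0733) without POLR2G replicate 3 or 4 or GFP control replicate 1, 3 or 4. It was 0.00663 without GFP control replicate 2, where that of Hspa1b was 0.0411. The p of Bag3 was 0.00668 without the unnumbered POLR2G library. None of these passed after adjustment. These genes share a regulator and were listed with results of these libraries known, so neither the count nor the median is a test. In whole liver, fewer cells of a type and less RNA per cell cannot be told apart.

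Library totals were 16362899 to 22165491 estimated counts in the POLR2G libraries and 14159056 to 18865284 in the GFP control libraries. Values below are CPM (counts scaled by library total and TMM factor), given for the POLR2G libraries in the order replicate 1, replicate 3, replicate 4 and a library whose number the labels do not list (called unnumbered), and for GFP control replicates 1 to 4. Polr2g, the gene the vector carries, had 38649 to 54553 counts in the POLR2G libraries against 213 to 258 in the GFP control libraries, so every library matched its group. Hepatocyte markers summed to 111229 to 126469 CPM in the POLR2G libraries and 119676 to 140869 CPM in the GFP control libraries (7 of 7 present). Intervals are 95% and come from the same edgeR fit.

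Chordc1 (ENSMUSG00000001774; GRCm38 chromosome 9, 18292125 to 18317442, plus strand), which encodes an HSP90 cochaperone with a pair of zinc-binding domains, was the member whose groups did not overlap. It measured 37.2, 48.4, 50.9 and 52.1 CPM in the POLR2G libraries, against 76.5, 60.2, 55.9 and 64.9 CPM in the GFP control libraries. Every POLR2G library lay below every GFP control library, while replicate 1 lay well below the other 3 POLR2G libraries. The means were 47.1 ± 6.80 and 64.4 ± 8.91 CPM (SD, n = 4 each), 1.37-fold lower in the POLR2G libraries. The log2 fold change was −0.45 (SE 0.13, interval −0.74 to −0.16), with an edgeR adjusted p of 0.36 over all genes. By exact permutation (two-sided, log2(CPM + 1)) p was 0.0286, which is the lowest value this design can reach. Groups apart were found for 5.51% of all genes, 2.83% with POLR2G higher and 2.68% with POLR2G lower, against 1 of the 9 members tested, and no excess over that share was tested. Its edgeR p ranked 186 of 10390.

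The inducible HSP70 genes Hspa1a (ENSMUSG00000091971; chromosome 17, 34969190 to 34972156, minus strand) and Hspa1b (ENSMUSG00000090877; chromosome 17, 34956436 to 34959238, minus strand) are neighbours with 1 annotated transcript each. Hspa1a measured 4.20, 2.63, 2.05 and 5.93 CPM in the POLR2G libraries, against 9.50, 3.66, 7.93 and 8.56 CPM in the GFP control libraries, from 36 to 99 and from 63 to 168 counts. The groups overlapped only through GFP control replicate 2, which lay below POLR2G replicate 1 and the unnumbered library. Hspa1a had the lowest log2 fold change of the 9, −1.0 (SE 0.38, interval −1.86 to −0.14, edgeR adjusted p = 0.513, exact permutation p = 0.0857), 2.00-fold lower, with means of 3.70 ± 1.74 and 7.41 ± 2.59 CPM (SD, n = 4 each). Hspa1b measured 50.1, 22.3, 35.2 and 49.0 CPM in the POLR2G libraries, against 59.5, 31.5, 56.1 and 61.8 CPM in the GFP control libraries. Again GFP control replicate 2 stood low in its group, and POLR2G replicate 3 was the lowest of all 8 libraries. Its log2 fold change was −0.41 (SE 0.28, interval −1.03 to 0.21, edgeR adjusted p = 0.758), and it was −0.22 without POLR2G replicate 3.

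The coding sequences of this pair are identical at 1915 of 1926 aligned positions (8 mismatches and 3 gap positions), and 65.4% of the 31-base words of Hspa1a and 68.0% of those of Hspa1b occur in transcripts of other genes, mostly in each other. Estimated counts can therefore be split between them, and their sum was compared too. Summed, the pair measured 54.3, 24.9, 37.3 and 54.9 CPM in the POLR2G libraries, against 69.0, 35.2, 64.0 and 70.3 CPM in the GFP control libraries. The groups overlapped, with every POLR2G library but replicate 3 above GFP control replicate 2. The sum was 1.40-fold lower in the POLR2G libraries on the log scale, at 42.9 ± 14.5 and 59.6 ± 16.5 CPM (SD, n = 4 each, exact permutation p = 0.2). Without POLR2G replicate 3 the log2 difference of the sum was −0.25, and it was −0.48 with all libraries. Hspa1a made up 8.65% ± 2.52 of the pair in the POLR2G libraries and 12.2% ± 1.39 in the GFP control libraries (SD, n = 4 each, exact permutation p = 0.0857, a comparison chosen after the values were seen).

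**Figure D2:**
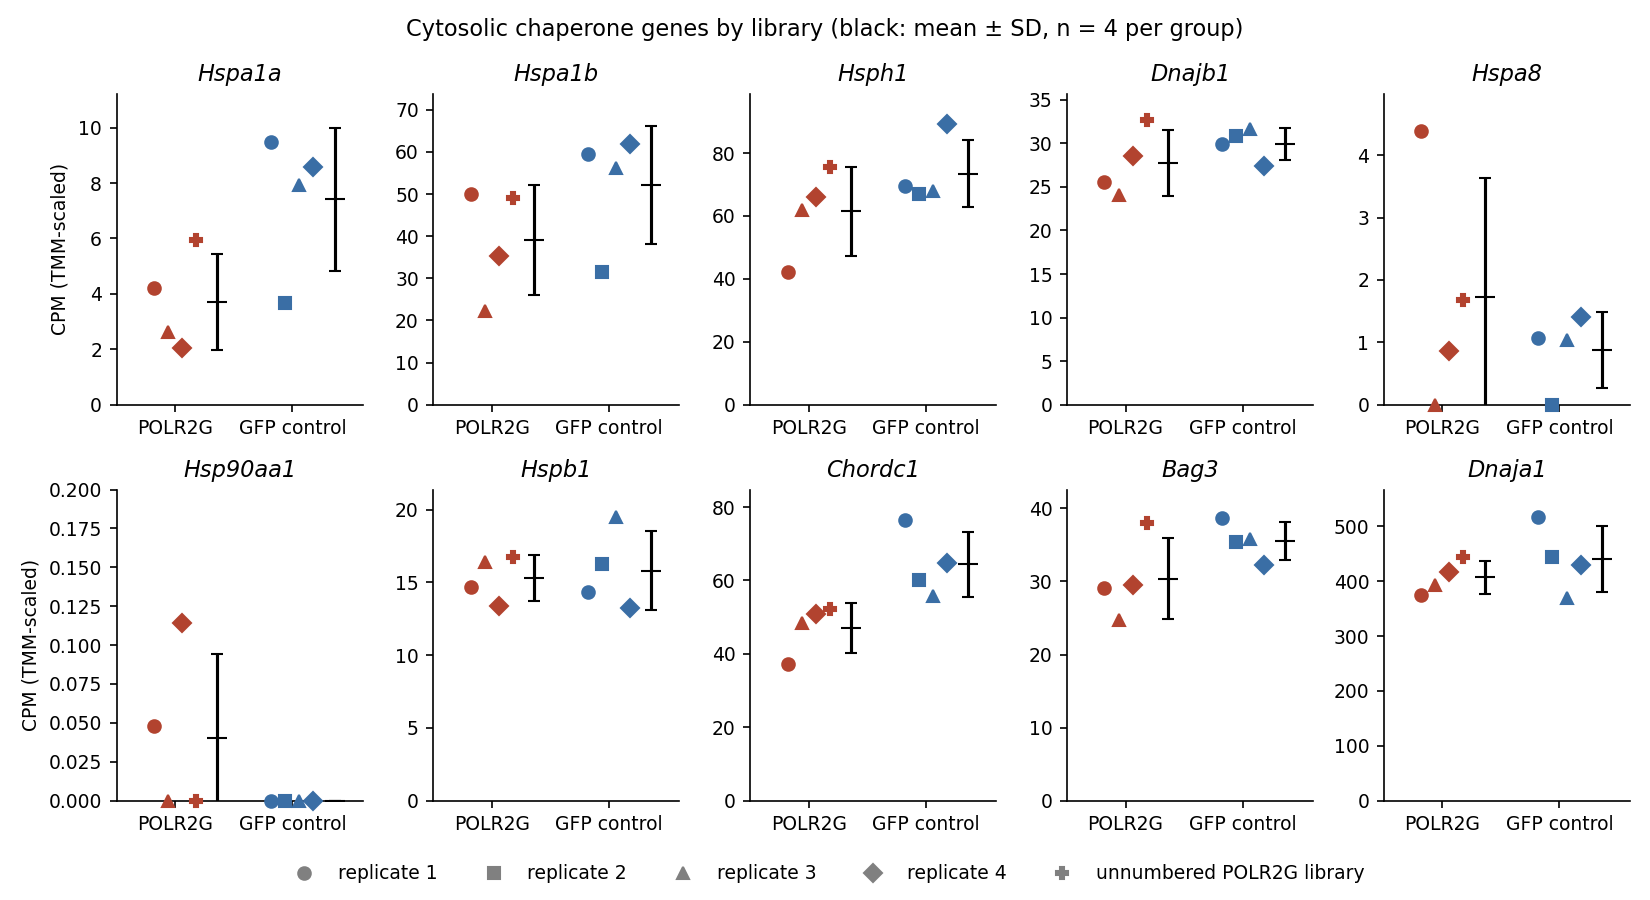
CPM (y axis, from 0) of each chaperone gene in each library, POLR2G in red and GFP control in blue, with marker shapes for replicate numbers and black bars for the mean ± SD (n = 4 per group). The groups do not overlap for Chordc1, while Hspa1a and Hspa1b overlap through GFP control replicate 2, and Hspa8 and Hsp90aa1 lie near 0.

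The exchange factor genes were lower on average in the POLR2G libraries within wide intervals. Hsph1 (ENSMUSG00000029657; chromosome 5, 149614287 to 149636376, minus strand), the HSP110 gene, measured 42.0, 62.0, 66.0 and 75.7 CPM in the POLR2G libraries, against 69.5, 67.0, 68.0 and 89.2 CPM in the GFP control libraries. POLR2G replicate 1 and GFP control replicate 4 stood apart from their groups in opposite directions. The log2 fold change was −0.26 (SE 0.17, interval −0.64 to 0.13, edgeR adjusted p = 0.755). It was −0.11 without POLR2G replicate 1 and −0.15 without GFP control replicate 4. Bag3 (ENSMUSG00000030847; chromosome 7, 128523616 to 128546981, plus strand) also links HSP70 to selective autophagy. It measured 29.1, 24.7, 29.6 and 38.0 CPM in the POLR2G libraries, against 38.7, 35.4, 35.8 and 32.3 CPM in the GFP control libraries. Only the unnumbered POLR2G library reached the GFP control range. Its log2 fold change was −0.23 (SE 0.13, interval −0.51 to 0.053, edgeR adjusted p = 0.69). It was −0.14 without POLR2G replicate 3 and −0.35 without the unnumbered library.

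The J-domain genes and the small heat shock protein gene differed least. Dnaja1 (ENSMUSG00000028410; chromosome 4, 40722150 to 40737149, plus strand) measured 375, 393, 416 and 444 CPM in the POLR2G libraries, against 518, 445, 369.7 and 429.7 CPM in the GFP control libraries. The POLR2G values lay within the GFP control range, which GFP control replicates 1 and 3 set. Dnajb1 (ENSMUSG00000005483; chromosome 8, 83608193 to 83612653, plus strand), the main HSP70 partner induced by heat, measured 25.5, 24.1, 28.5 and 32.6 CPM in the POLR2G libraries, against 29.9, 30.8, 31.6 and 27.4 CPM in the GFP control libraries, with overlapping groups. Both had a log2 fold change of −0.11 (SE 0.10, interval −0.35 to 0.12), with edgeR adjusted p of 0.836 for Dnaja1 and 0.842 for Dnajb1. With 1 library left out, Dnaja1 ran from −0.19 (without GFP control replicate 3) to −0.027 (without GFP control replicate 1). Dnajb1 ran from −0.20 (without the unnumbered POLR2G library) to −0.050 (without POLR2G replicate 3). Hspb1 (ENSMUSG00000004951; chromosome 5, 135887919 to 135889563, plus strand) measured 14.7, 16.4, 13.4 and 16.8 CPM in the POLR2G libraries, against 14.3, 16.2, 19.5 and 13.2 CPM in the GFP control libraries. Its POLR2G values lay inside the GFP control range, and the log2 fold change was −0.046 (SE 0.14, interval −0.36 to 0.27, edgeR adjusted p = 0.964), with the sign turning without POLR2G replicate 4 (0.013) or GFP control replicate 3 (0.068). Over these 3 genes the intervals ran from 0.780-fold at the lowest to 1.203-fold at the highest.

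The constitutive HSP70 gene and the HSP90 gene, which most tissues express strongly, had almost no counts in the table. Hspa8 (ENSMUSG00000015656; chromosome 9, 40800984 to 40810087, plus strand) had 91, 0, 15 and 28 counts in the POLR2G libraries, against 19, 0, 16 and 26 counts in the GFP control libraries. It is listed at 0 in a library of each group, and POLR2G replicate 1 alone stood above the rest. Its log2 fold change of 0.98 has an SE of 1.13 and an interval from −1.56 to 3.52 (edgeR adjusted p = 0.879), and without POLR2G replicate 1 it was −0.061. Hsp90aa1 (ENSMUSG00000021270; chromosome 12, 110690605 to 110702728, minus strand) had 1, 0, 2 and 0 counts in the POLR2G libraries and is listed at 0 in all 4 GFP control libraries, so it was not tested and has no fold. GENCODE M21 gives 3 coding transcripts for Hspa8 and 5 for Hsp90aa1, and 71.6% and 54.0% of their 31-base words also occur in transcripts of other annotated genes. The largest share was with Gm15459 for Hspa8 (68.9%) and with Gm12346 for Hsp90aa1 (49.0%). Neither of these is among the 20894 genes listed. The other HSP90 gene of the cytosol, Hsp90ab1, had 0 to 21 counts in a library (chosen after its values were seen). How transcripts were combined into genes is not given in the sources used here, so these 3 values cannot be read as the genes' expression in liver. Genes of the lists below had few counts too, such as Hsp90b1 (0 to 6 in a library) and Cct3 (0 to 10). Among those tested, Cct8 had 2 to 45 and Fkbp4 0 to 85 counts in a library. The limit holds for these genes too, which were chosen after their values were seen, and so for their lists.

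The same limit applies in part to other members. Hspa1a, Hspa1b and Bag3 have 1 annotated coding transcript, Dnajb1 and Hspb1 have 2, Chordc1 has 3, Dnaja1 has 5 and Hsph1 has 7. Hsph1 and Bag3 share no 31-base word with another gene, Dnajb1 0.412%, Chordc1 1.07%, Dnaja1 19.6% and Hspb1 52.3%, the last all with the pseudogene Hsp25-ps1. Per kilobase of annotated exon and averaged over all 8 libraries, Dnaja1 had the highest level, 49.1 CPM per kb, and its lowest library lay above every library of every other member. Then came Hspa1b (16.3), Hspb1 (15.1), Bag3 (12.9), Hsph1 (9.28), Dnajb1 (8.99) and Chordc1 (7.44 CPM per kb), each overlapping the next in the range of its libraries. Hspa1a followed below a gap at 1.87 CPM per kb, then Hspa8 at 0.303 and Hsp90aa1 at 0.00516 CPM per kb. The length used joins the exons of all annotated transcripts of a gene, for example 8629 bases for Dnaja1 and 2562 for Bag3. It can understate genes with many transcripts. The place of Hspa1a also rests on how counts were split between it and Hspa1b.

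**Figure D3:**
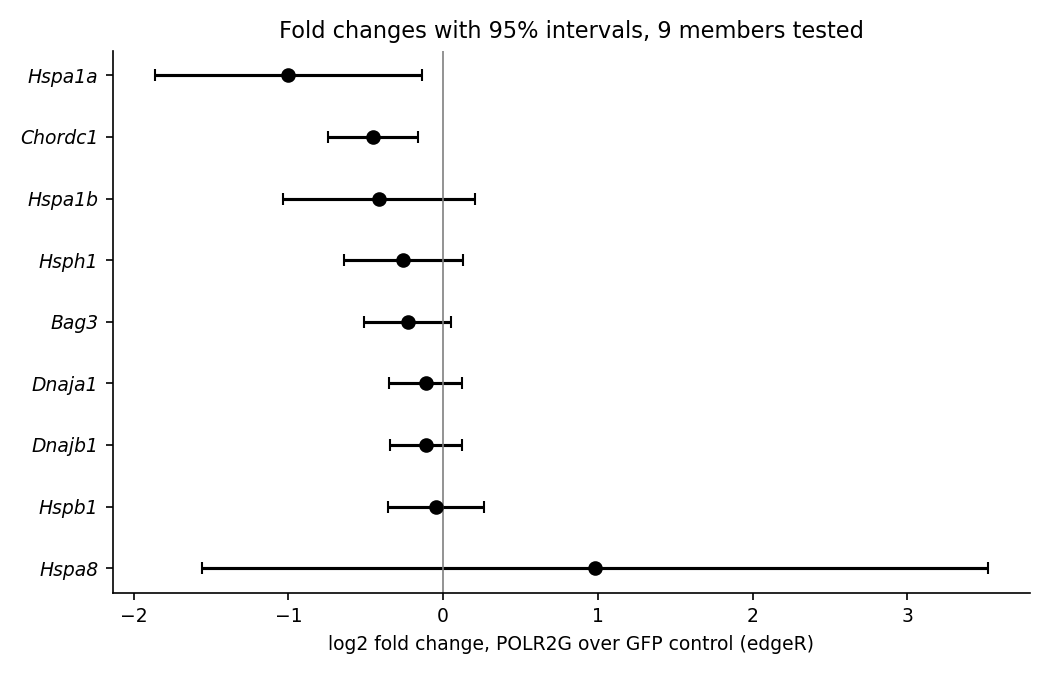
Log2 fold changes (x axis, POLR2G over GFP control) of the 9 members tested, with points for the edgeR estimate and bars for the 95% interval. The estimates of 8 members lie below 0, the intervals of Hspa1a and Chordc1 do not reach 0, no member passed after adjustment over all genes, and Hspa8 spans −1.56 to 3.52.

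The members did not follow one pattern over the POLR2G libraries. For the 8 members with counts in every library, log2 CPM was set against the gene's GFP control mean. The median over these 8 was −0.26, −0.36, −0.24 and 0.039 in the POLR2G libraries (order as above), against 0.18, −0.045, 0.046 and −0.0022 in GFP control replicates 1 to 4. All 8 lay below their GFP control mean in POLR2G replicates 1 and 4, 7 in replicate 3 and 3 in the unnumbered library. In POLR2G replicate 1 the lowest members were Hsph1 (−0.79) and Chordc1 (−0.78), while Hspa1b stood at −0.011. Replicate 3 had Hspa1a (−1.37) and Hspa1b (−1.17) lowest, with Hsph1 at −0.23. The lowest value of all, −1.71, was that of Hspa1a in replicate 4. Among GFP control libraries, replicate 2 had both inducible HSP70 genes low, Hspa1a at −0.91 and Hspa1b at −0.68, with the other 6 within −0.12 to 0.054. The inducible pair also varied most within groups: the pooled within-group SD of log2 CPM was 0.64 for Hspa1a and 0.50 for Hspa1b, above 86.7% and 79.8% of all genes tested. It was 0.15 for Dnajb1, above 28.0%.

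**Figure D4:**
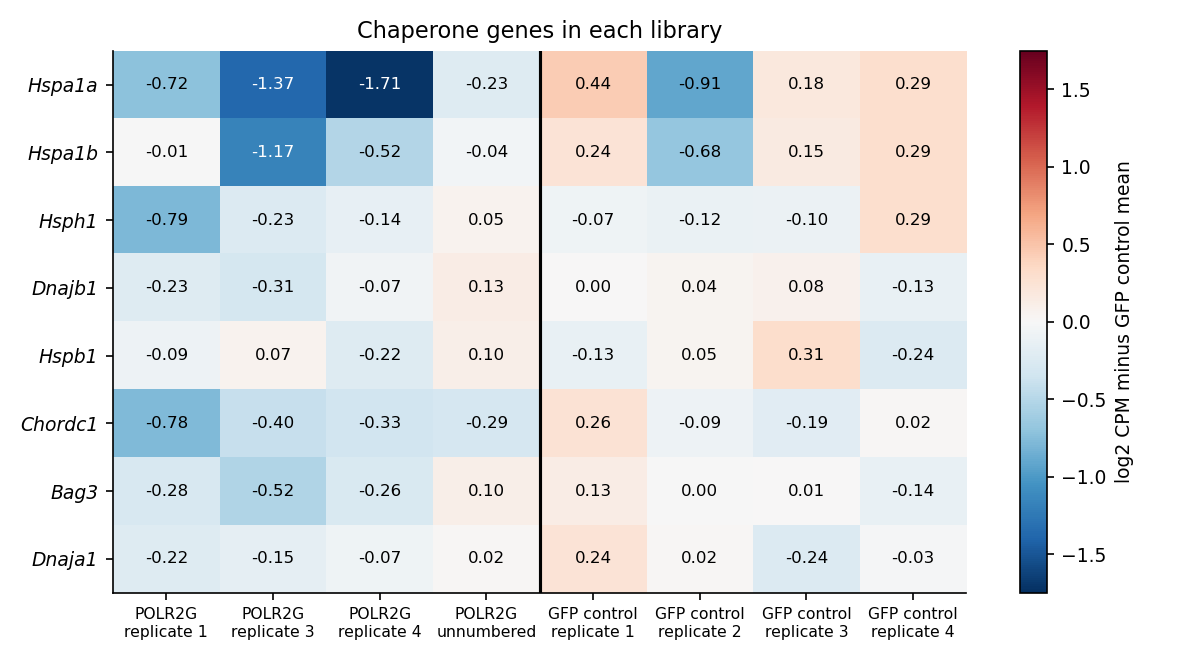
Log2 CPM minus the GFP control mean (colour and printed value) of the 8 members with counts in every library, with POLR2G libraries left of the line and GFP control libraries right of it. Hspa1a and Hspa1b are the lowest members in POLR2G replicates 3 and 4 and in GFP control replicate 2, and Hsph1 and Chordc1 in POLR2G replicate 1.

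The genes whose values over the 8 libraries were most like those of Hspa1a, the most variable member of those averaging 1 or more in log2 CPM, were sought among 8510 genes at that level. Likeness was the root mean square difference of centred log2 CPM. H2-Q1 (0.34) and 2010003K11Rik (0.35) were nearest, followed by Slc25a3 (0.39), Celf2 (0.43) and Safb (0.44), and Hspa1b stood at 0.42 and Chordc1 at 0.63. H2-Q1, a class I histocompatibility gene, measured 8.30, 5.27, 4.61 and 8.98 CPM in the POLR2G libraries, against 9.67, 6.79, 11.2 and 11.98 CPM in the GFP control libraries. Like Hspa1a, it was low in POLR2G replicates 3 and 4 and in GFP control replicate 2. H2-Q1 was chosen for likeness in these same libraries, so the shared pattern is no separate result. None of the 5 passed the test (edgeR adjusted p from 0.208 to 0.821).

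Other genes of the cytosolic chaperone network did not pass the test either. A list of 40 held cochaperones, further HSP70, HSP40 and small heat shock protein genes, heat shock factors and ubiquitin genes. It also held chaperones from outside the cytosol, such as Hspd1 and Hspe1 (mitochondria), Serpinh1 (endoplasmic reticulum) and Hspa13 (microsomes), named here for their place. Of the 40, 35 were tested and 0 passed in either direction, against 0.0385% of all genes. The mean was higher in the POLR2G libraries for 12 and lower for 23, where 50.7% of all genes were lower. The median log2 fold change was −0.065. The members with the smallest p were Bag2, an HSP70 cochaperone gene (1.39 ± 0.641 CPM in the POLR2G libraries and 2.67 ± 0.515 CPM in the GFP control libraries, log2 fold change −0.94, SE 0.35), and the polyubiquitin gene Ubb (717 ± 25.6 and 626 ± 52.3 CPM, log2 fold change 0.20, SE 0.076). The groups did not overlap for Ubb (1 of the 35, against 5.51% of all genes tested). Its edgeR adjusted p was 0.513 and that of Bag2 0.494. The factor genes themselves did not pass: Hsf1 had a log2 fold change of 0.10 (edgeR adjusted p = 0.903) and Hsf2 of −0.18 (0.825). Stip1, the adaptor between HSP70 and HSP90, stood at −0.19 and the HSP110 gene Hspa4 at −0.094 (these 4 chosen after their values were seen).

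The chaperonin TRiC and prefoldin genes, which fold actin and tubulin, had 0 of 12 tested members past the threshold, 6 with a higher mean and 6 with a lower one (median −0.0013). Cct7 (94.4 ± 12.2 CPM in the POLR2G libraries and 77.2 ± 3.43 CPM in the GFP control libraries, log2 fold change 0.29, adjusted p = 0.437) and Cct6a (−0.13) had the smallest p. Chaperones of the endoplasmic reticulum, which answer to other factors than HSF1, had 0 of 12 past it, 5 higher and 7 lower (median −0.035). Dnajb11 (8.54 ± 1.35 and 5.57 ± 0.886 CPM, log2 fold change 0.62, adjusted p = 0.364) and Hyou1 (−0.40) had the smallest p. Over all genes tested, 0.0385% passed and 50.7% had a lower mean. The difference between these lists and the 10 members was not tested.

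**Figure D5:**
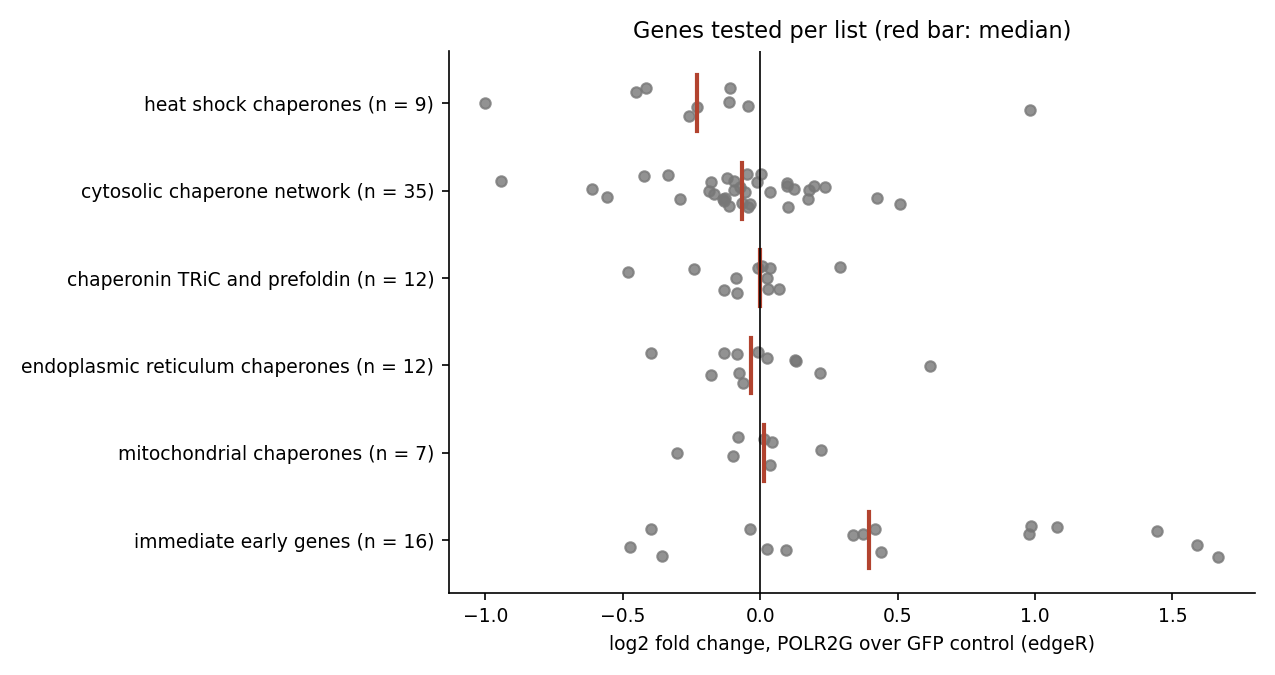
Log2 fold changes (x axis, POLR2G over GFP control) of every tested gene in 6 lists (rows), with a red bar at each list's median; vertical scatter within a row carries no value. The medians run from −0.23 for the 9 members to 0.40 for immediate early genes, and no gene shown passed after adjustment over all genes.

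Immediate early genes, which cells switch on within minutes of a stimulus or of handling, had 0 of 16 tested members past the threshold, against 0.0385% of all genes. The mean was higher for 12 and lower for 4 (median 0.40), where 50.7% of all genes were lower. The groups did not overlap for Dusp1 (POLR2G higher) and Klf6 (POLR2G lower, log2 fold change −0.40), against 5.51% of all genes tested. Klf6 was named after its values were seen. The phosphatase gene Dusp1 measured 54.4 ± 17.4 CPM in the POLR2G libraries and 20.004 ± 3.07 CPM in the GFP control libraries (SD, n = 4 each, edgeR adjusted p = 0.0826), and Myc had 24.4 ± 9.13 and 8.08 ± 5.19 CPM (adjusted p = 0.35). Their mean over the list, minus the GFP control mean, was 0.21, 0.51, 0.99 and 0.27 in the POLR2G libraries, against 0.27, −0.15, 0.14 and −0.27 in the GFP control libraries. It was highest in POLR2G replicate 4, where Hspa1a was lowest. Among GFP control libraries, however, the list mean was highest in replicate 1, where Hspa1a was also highest (9.50 CPM). The part of such a signal in the chaperone values was not tested.

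Markers of other liver cells were present in both groups. For the counts below, 0.0385% of all genes tested passed the threshold and 50.7% had a lower mean. Kupffer cell markers summed to 219.9 to 422 CPM in the POLR2G libraries and 199 to 310.3 CPM in the GFP control libraries. All 6 had a higher mean in the POLR2G libraries (median log2 fold change 0.24, 0 past the threshold), with Marco at 1.34 (SE 0.83) and Adgre1 at 1.37 (SE 0.93), but 4 of 6 without the unnumbered library. Marco measured 5.02, 3.92, 9.97 and 60.6 CPM in the POLR2G libraries, against 8.54, 2.90, 10.5 and 9.27 CPM in the GFP control libraries. The unnumbered library alone stood above the GFP control range, and without it the Marco mean was 6.30 CPM in the POLR2G libraries against 7.80 CPM in the GFP control libraries. The unnumbered POLR2G library had the highest Kupffer score, 1.40, and it was also the POLR2G library with the highest chaperone median. Among GFP control libraries, however, replicate 1 had the lowest Kupffer score (−0.45) and the highest chaperone median (0.18). Endothelial markers summed to 141 to 171 CPM in the POLR2G libraries and 122 to 172 CPM in the GFP control libraries (5 tested, median 0.028, with Lyve1 at −0.85 and Pecam1 at 0.21). Stellate cell markers summed to 113 to 168 CPM in the POLR2G libraries and 96.1 to 171 CPM in the GFP control libraries. Of 6 tested (median 0.14), 5 had a higher mean and 1 a lower one, with Ecm1 and Des both at 0.29. Cholangiocyte markers summed to 6.53 to 10.8 CPM in the POLR2G libraries and 5.53 to 11.7 CPM in the GFP control libraries. Of 3 tested (median 0.39), Spp1 stood at 0.70 and Epcam at 0.39, while Sox9 went the other way at −0.16. Krt19 (mean 0.596 CPM in the POLR2G and 0.743 CPM in the GFP control libraries) and Krt7 (0.582 and 0.717 CPM) were lower and not tested. Sox9, Krt19 and Krt7 were named after their values were seen. Red blood cell markers (5 tested, all with a higher mean, median 0.15, with Alas2 at 0.44 and Hba-a1 at 0.20) summed to 808 to 1546 CPM in the POLR2G libraries and 613 to 1437 CPM in the GFP control libraries. Lymphocyte markers reached 2.34 CPM in the POLR2G libraries and 2.55 CPM in the GFP control libraries, and neutrophil markers 0.479 and 0.848 CPM, with Ly6g at 0 in every library. Hepatocyte markers all had a lower mean (7 of 7, median −0.14, 0 past the threshold, with Ttr at −0.19 and Alb at −0.16), and without the unnumbered library 1 of the 7 was higher. The part of these cells in the chaperone values was not tested.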

How the data were processed

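The authors deposited estimated counts per gene, given as whole numbers with no normalization. Salmon 1.2.1 and the builds GRCm38 and mm10 are listed, without a role, in the submitters' processing notes. Libraries were poly-A selected and strand-specific, according to the labels' protocols. Symbols and coordinates are from GENCODE M21 (GRCm38); 20817 identifiers had a symbol. Columns were matched by library name. For 1 POLR2G column the number is absent from the labels, and it was used with its group only.

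The test was edgeR 4.0.16 in R 4.3.3 (quasi-likelihood, two-sided, TMM scaling) on all 8 libraries with group as its term. Low genes were removed with filterByExpr (count 10, total 15), and p-values were adjusted by Benjamini-Hochberg over 10390 genes, threshold 0.05. The biological coefficient of variation was 0.248. The SE is the log2 fold change over the square root of F. For single values all 70 arrangements of the libraries were enumerated on log2(CPM + 1). The 12 within-group pairs of libraries were no duplicates: their counts differed with a chi-square of 13.7 to 138 per degree of freedom. The 10 members and all lists were chosen with earlier results of these data known. Named genes are the members, Polr2g, the 2 genes of each list with the smallest p, and the 5 genes most like Hspa1a; exceptions are marked. Alternatives were other scalings (RLE, upper quartile, totals), DESeq2 1.42.0, limma-voom (limma 3.58.1), other filters, Polr2g left out, a replicate block, another pseudocount (0.1) and each library left out. Library totals of 14159056 to 22165491 set the counting precision.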

Additional observations from a re-analysis of the deposited data

Results flagged for a closer look

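GFP control replicate 4 stood apart for Hsph1, at 89.2 CPM, against 67.0 to 69.5 CPM in the other 3 GFP control libraries. Its gap to the nearest library was 0.887 of the group's range, above Dixon's 95% critical value for 4 samples. It was the only one of 22 groups of values looked at (11 quantities in 2 groups) to do so, and chance gives about 1 in 20. Without that library the log2 fold change of Hsph1 was −0.15 (SE 0.17, edgeR adjusted p = 0.883), and it was −0.26 with all 8.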

How the results depend on the processing

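No member passed the threshold in any of the 18 alternatives. The smallest adjusted p was 0.0918, for Chordc1 in DESeq2, and over its 18 alternatives that of Chordc1 ran from 0.0918 to 0.666. Chordc1 (log2 fold change −0.53 to −0.35), Hspa1a (−1.60 to −0.80), Hspa1b (−0.79 to −0.22), Hsph1 (−0.43 to −0.11), Bag3 (−0.36 to −0.14), Dnajb1 (−0.20 to −0.050) and Dnaja1 (−0.19 to −0.027) were negative throughout. With 1 library left out Hspb1 ran from −0.12 to 0.068, turning to 0.013 without POLR2G replicate 4 and to 0.068 without GFP control replicate 3. Hspa8 ran from −0.061 (without POLR2G replicate 1) to 1.39 (without POLR2G replicate 3), and was −0.54 in the replicate block. The median of the 8 members was −0.24, but −0.16 without POLR2G replicate 1, −0.36 without the unnumbered POLR2G library, −0.39 in the block and −0.39 in its 6 libraries without it. Hspa1a had an unadjusted edgeR p over 0.05 without POLR2G replicate 3 or 4, or GFP control replicate 1, 3 or 4 (0.0536 to 0.0733). The count of 4 genes called over the table became 1 with library totals only, 135 in DESeq2 and 2 with Polr2g left out. It ran from 1 (without POLR2G replicate 1 or 4) to 6 (without GFP control replicate 1) with 1 library left out, and was 2 without the unnumbered POLR2G library or GFP control replicate 2. The summed HSP70 pair ran from −0.72 to −0.25 over its 12 alternatives (exact permutation p from 0.0571 to 0.4).

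The labels' numbers pair 3 libraries of each group. Same-numbered libraries did not deviate together (correlations −0.0057 to 0.062), so the numbers were not used as pairs. With the replicate block over these 6 libraries 2 genes passed, 0 of them members, and the same 6 libraries without the block, an alternative chosen after seeing the data, gave 1. In the block 5 members had an unadjusted p under 0.05 (Bag3, Chordc1, Hspa1a, Hspa1b and Hsph1), and 4 in its 6 libraries without it. The share of all genes at that level in these 6-library fits was not computed, so no excess can be read from these counts. Hspa1a rests on 36 to 168 counts a library, and why Hspa8 and Hsp90aa1 have so few counts was not tested. The counts of Kupffer and hepatocyte markers without the unnumbered library were also chosen after seeing the data.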

Other observations

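Chaperones of the mitochondrion had 0 of 7 tested members past edgeR's threshold, 4 with a higher mean in the POLR2G libraries and 3 with a lower one (median log2 fold change 0.015). Over all genes tested, 0.0385% passed and 50.7% had a lower mean. Hspd1 and Hspe1 are not among the 7, as they were listed with the cytosolic network. The groups did not overlap for 1 of the 7, against 5.51% of all genes tested. It was Lonp1, a protease of the matrix, at 169.6 ± 8.30 CPM in the POLR2G libraries and 145 ± 9.49 CPM in the GFP control libraries (SD, n = 4 each, edgeR adjusted p = 0.431). Grpel2, an exchange factor of mitochondrial HSP70, measured 40.8 ± 1.74 CPM in the POLR2G libraries and 50.3 ± 5.96 CPM in the GFP control libraries (edgeR adjusted p = 0.396).

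Cirbp and Rbm3, RNA-binding genes that rise when temperature falls, went in no common direction. Cirbp measured 18.9 ± 3.59 CPM in the POLR2G libraries and 17.8 ± 3.81 CPM in the GFP control libraries (log2 fold change 0.089, edgeR adjusted p = 0.942). Rbm3 measured 47.7 ± 6.23 and 53.4 ± 12.5 CPM (log2 fold change −0.16, adjusted p = 0.856).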
